A study of Homo sapiens with 6 samples.

Results

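The 10 genes described here encode the main heat shock chaperones of the human cytosol and of the mitochondrial matrix: HSP90AA1, HSP90AB1, HSPA8, HSPA1A, HSPA4, HSPH1, DNAJB1, DNAJA1, HSPD1 and HSPE1. They were taken by name from a gene table with 48863 names, and 9 of them, all but HSPA1A, reached the mean of 1 FPKM (fragments per length of transcript and depth of library) required for testing, among 13084 such names. The table covers 6 RNA sequencing libraries. The cells are labelled U-937, a line from a histiocytic lymphoma that is used as a model of monocytes. The labels give 3 control libraries of wild-type genotype (control) and 3 libraries with FOXO3A knocked out by small guide RNAs (FOXO3A KO), all grown in RPMI1640 with serum and antibiotics. FOXO3A is an older name of FOXO3, a forkhead transcription factor restrained by AKT, and the comparison asks how its loss alters gene expression. The sources used here do not say whether a group stems from 1 clone, a pool or separate cultures, nor name the guides. The p-values below therefore reflect variation from library to library, and this variation may be technical.

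Several facts of the libraries bear on every value below. FOXO3 mRNA was at 4.04 ± 0.355 FPKM in control and 3.84 ± 0.346 in KO libraries (SD, n = 3 each; limma adjusted p = 0.73), so transcript level did not separate the groups, and directions are those of the libraries labelled KO. The cell label did not match the markers: of 12 monocyte and myeloid markers 10 lay below a mean of 1 FPKM. FCGR1A, MNDA and ELANE stood at the table's floor of 0.0001 FPKM in every library, and CD14 reached at most 0.0954 FPKM in control and 0.298 in KO libraries. The monocyte and myeloid markers summed to 63 to 69.4 FPKM in control and 64.5 to 75.7 in KO libraries, mostly from CD68. All 10 T cell markers were above that mean, summing to 615 to 695 FPKM in control and 693 to 752 in KO libraries, and CD3E reached at least 182 FPKM in each control library. Of these markers CD3D, CD3G, CD247, CD2 and TRAT1 were higher in KO libraries without overlap, while CD3E, CD5, CD7, LCK and ZAP70 overlapped. CD2 was at 1.17 to 1.71 FPKM in control and 3.04 to 3.24 in KO libraries, and TRAT1 at 5.38 to 6.77 and 11.5 to 13.7. CD79A and BLK, genes of B cells, were lower in KO libraries without overlap, at 35.6 to 43.2 and 25.2 to 32.2 FPKM for CD79A and 4.34 to 4.68 and 2.86 to 3.62 for BLK. Another B cell gene, CD79B, overlapped at 0.888 to 1.13 and 0.856 to 1.09 FPKM. MS4A1, PAX5 and CD22 reached at most 0.0256, 0.0131 and 0.00954 FPKM in any library. The part of these marker differences in the chaperone values was not tested. In bulk RNA a change in the share of a cell type and a change in RNA per cell cannot be told apart. Depth, read from the steps between low values, was 4.26 to 5.71 gigabases of aligned sequence per library, so 1 FPKM stood for a mean coverage of 4.26 to 5.71. The second control library lay apart on the first principal component, at -32.2 against -14.6 to 20.2 for the others.

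Heat shock chaperones hold client proteins in a foldable state and carry them through cycles of ATP binding and hydrolysis. HSP70 proteins bind short hydrophobic stretches, J domain proteins hand clients to them and trigger hydrolysis, and nucleotide exchange factors of the HSP110 type reset them. HSP90 dimers act later, on kinases, steroid receptors and other near-native clients, while in the mitochondrial matrix HSP60 (HSPD1) and its lid HSP10 (HSPE1) fold imported proteins inside a closed chamber. Under proteotoxic stress the factor HSF1 binds heat shock elements, inverted repeats of the unit nGAAn, and raises the inducible members. T lymphocytes and leukaemias of the T lineage are known to rely on HSP90 for the stability of kinases such as LCK.

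The promoters of the members that separated the groups are shown first because heat shock elements and forkhead sites are the sequences through which HSF1 and FOXO factors act. Each is the stretch of 250 bases before a start site of the RefSeq table (GRCh38.p14), written 5′ to 3′ on the gene's strand, with capitals marking heat shock elements of at least 2 units or the forkhead motif. The HSP90AA1 windows are chr14:102087045-102087294, before the start of the shorter transcript, and chr14:102139750-102139999, before the upstream start, both on the minus strand. Of 3 HSP90AB1 windows the one shown, chr6:44247693-44247942 on the plus strand, lies before an internal start and was picked for its matches, while the others, chr6:44245944-44246193 and chr6:44246851-44247100, hold none of these motifs. Those of DNAJA1 and HSPH1 are chr9:33025023-33025272 (plus strand) and chr13:31162389-31162638 (minus strand).
HSP90AA1, shorter transcript: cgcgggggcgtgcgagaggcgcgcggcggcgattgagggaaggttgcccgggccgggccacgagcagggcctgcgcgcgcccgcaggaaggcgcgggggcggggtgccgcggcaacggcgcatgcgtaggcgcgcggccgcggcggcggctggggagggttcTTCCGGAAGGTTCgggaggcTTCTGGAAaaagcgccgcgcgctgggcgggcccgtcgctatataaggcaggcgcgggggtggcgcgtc
HSP90AA1, upstream start: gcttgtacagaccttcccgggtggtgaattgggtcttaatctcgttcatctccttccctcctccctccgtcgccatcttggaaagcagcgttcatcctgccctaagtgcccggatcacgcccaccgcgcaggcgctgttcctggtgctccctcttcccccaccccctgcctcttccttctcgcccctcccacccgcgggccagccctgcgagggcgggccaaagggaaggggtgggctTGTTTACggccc
HSP90AB1, internal start: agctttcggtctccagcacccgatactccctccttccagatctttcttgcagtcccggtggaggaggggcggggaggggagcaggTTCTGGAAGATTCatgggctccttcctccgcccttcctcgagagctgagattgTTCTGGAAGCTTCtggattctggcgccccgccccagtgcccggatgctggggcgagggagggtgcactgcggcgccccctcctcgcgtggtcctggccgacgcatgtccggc
DNAJA1: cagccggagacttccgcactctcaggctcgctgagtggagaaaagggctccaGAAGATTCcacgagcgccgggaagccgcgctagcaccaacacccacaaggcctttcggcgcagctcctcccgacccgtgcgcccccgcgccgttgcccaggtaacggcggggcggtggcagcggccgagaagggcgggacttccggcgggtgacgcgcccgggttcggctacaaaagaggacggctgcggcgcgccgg
HSPH1: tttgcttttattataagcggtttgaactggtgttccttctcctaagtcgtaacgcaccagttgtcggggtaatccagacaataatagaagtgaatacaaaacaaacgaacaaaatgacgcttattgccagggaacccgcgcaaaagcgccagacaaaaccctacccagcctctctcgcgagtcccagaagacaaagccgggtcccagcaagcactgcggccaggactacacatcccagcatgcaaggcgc

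Heat shock elements of 3 units (GAANNTTCNNGAA or TTCNNGAANNTTC, both strands) stood in 4 of the 16 windows of the 10 genes, against 0.441% of all 35116 windows of the table. The 4 genes were HSP90AA1, HSP90AB1, HSPA8 and HSPD1, and the element of the shorter HSP90AA1 transcript ended 75 bases before the start. The window of HSPA8 held 2 of them, the nearer one 42 bases before the start, and that of HSPD1 held a run of overlapping units that ended 227 bases before it. Elements of 2 units (GAANNTTC or TTCNNGAA), which every 3-unit match contains, stood in 7 of the 16 windows and in 11.6% of all windows. They added DNAJA1, DNAJB1 and HSPA1A to the genes named. The forkhead motif (TGTTTAC or its complement GTAAACA) stood in 1 of the 16 windows, 5 bases before the upstream start of HSP90AA1, and in 2.98% of all windows. HSPH1, HSPA4 and HSPE1 had no match to any of these motifs. Matches describe the letters in these windows and show no binding.

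Levels spanned more than 3 orders of magnitude on the FPKM scale, which is per length of transcript. HSP90AB1, the constitutive cytosolic HSP90, ranked 12th by mean among 11192 rows at a mean of 1 FPKM or more. HSPA8, the constitutive cytosolic HSP70 also called HSC70, ranked 28th, HSP90AA1, the inducible HSP90, 45th and HSPD1 67th. DNAJA1, a J domain partner of HSPA8, ranked 139th. DNAJB1, the inducible J domain protein, HSPA4, a nucleotide exchange factor of the HSP110 group, and HSPE1 followed at ranks 436, 478 and 635. HSPH1, the heat-inducible HSP110, came at rank 3897. Over all 6 libraries HSP90AB1 stood clear of every other gene. The ranges of HSPA8 and HSP90AA1 overlapped, as did those of HSP90AA1 and HSPD1, and those of DNAJB1, HSPA4 and HSPE1. Together the 10 genes held 1.28% ± 0.0478 of the summed FPKM in control and 1.34% ± 0.0662 in KO libraries (SD, n = 3 each), a gap within the spread of the libraries.

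**Figure D1:**
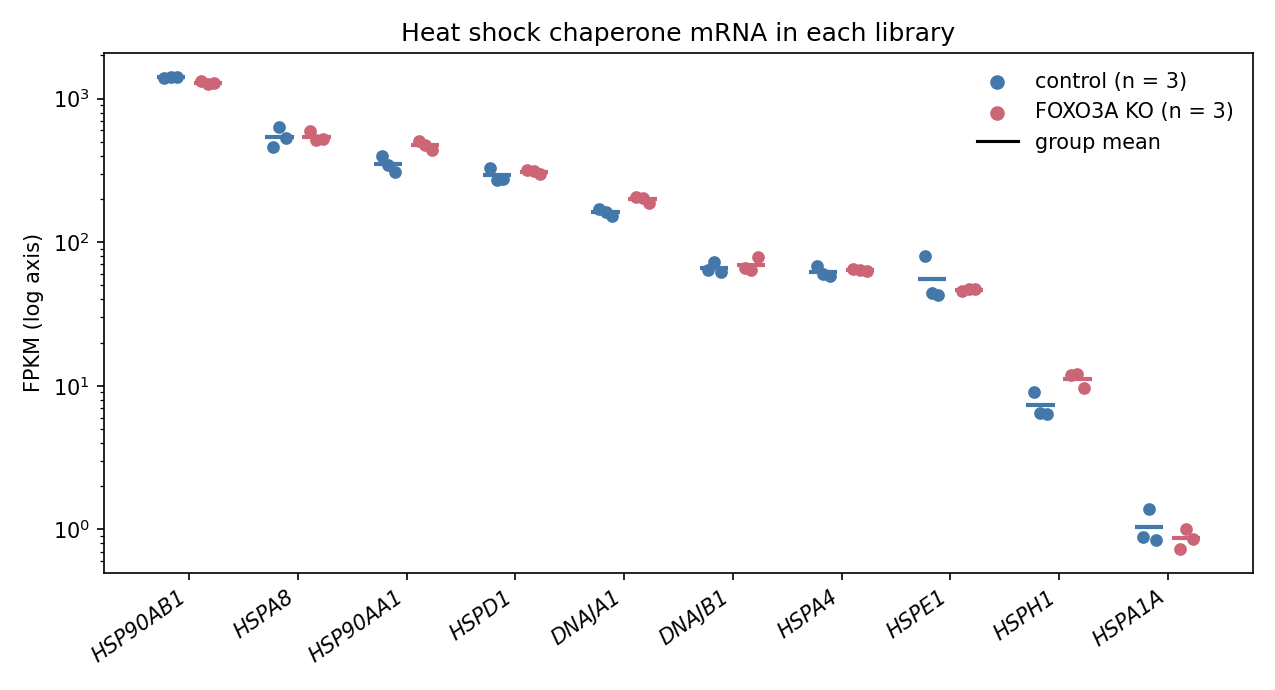
FPKM on a log axis for the 10 chaperone genes, ordered by mean, with 1 point per library, control in blue and FOXO3A KO in red, and a bar at each group mean. HSP90AB1 is highest at 1267 to 1422 FPKM and HSPA1A lowest at 0.731 to 1.39 FPKM; groups are apart in HSP90AB1, HSP90AA1, DNAJA1 and HSPH1.

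The cytosolic chaperones HSP90AA1, HSPH1 and DNAJA1 were higher in every KO library than in every control library, and HSP90AB1 was lower, but none of the 9 tested genes passed the threshold, a limma p below 0.05 after Benjamini-Hochberg adjustment over all 13084 names (adjusted p from 0.0761 to 0.96). In all tested genes 2.35% passed it, 1.21% as higher and 1.15% as lower in KO libraries. An unadjusted p below 0.05 was found for 3 of the 9, against 25.1% of all tested genes, and groups without overlap for 4 of the 9, against 31.9%. By direction, 3 of the 9 were higher without overlap, against 17.2% of all tested genes, and 1 was lower, against 14.7%. With 9 genes these shares are a description and no test of the chaperones against the rest of the table. The median log2 fold change of the 9 on the log2(FPKM + 1) scale was 0.07, and that of all tested genes was 0.02. The mean was higher in KO libraries for 7 of the 9, against 53% of all tested genes.

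HSP90AA1 lies on chromosome 14 from 102080738 to 102139699 on the minus strand (GRCh38, GENCODE release 29) and encodes HSP90 alpha. Control libraries held 396, 347 and 307 FPKM of its transcript and KO libraries 510, 473 and 440 FPKM. The lowest KO library lay above the highest control. Means of 350 ± 44.9 and 474 ± 35.4 FPKM (SD, n = 3) differed by 0.44 on the log2 scale (SE 0.11, 95% interval 0.18 to 0.71, limma adjusted p = 0.0789). The adjusted p was 0.039 without the first control library, the highest of the controls, and at most 0.228 with any 1 library left out. Without the first control library 2 of the 9 chaperones passed the threshold, HSP90AA1 and HSPH1, and 7.87% of all tested genes did.

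HSP90AB1, on the plus strand of chromosome 6 from 44246166 to 44253888, encodes HSP90 beta, the form that cells make without stress. Its control libraries stood at 1401, 1422 and 1403 FPKM and its KO libraries at 1318, 1267 and 1279 FPKM. All KO libraries were below all controls, and the controls were close to each other. The means of 1409 ± 11.7 and 1288 ± 26.5 FPKM (SD, n = 3) were apart by -0.13 on the log2 scale (SE 0.06, 95% interval -0.27 to 0.01, limma adjusted p = 0.227).

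The means of the HSP90 genes lay in opposite directions, neither past the threshold, and their ratio within a library does not depend on how libraries are scaled. HSP90AA1 stood at 0.283, 0.244 and 0.219 of the HSP90AB1 level in the control libraries and at 0.387, 0.373 and 0.344 in the KO libraries. The groups did not overlap (0.248 ± 0.0323 and 0.368 ± 0.0222, SD, n = 3). The log2 ratio was higher by 0.57 in KO libraries. Since HSP90AA1 was higher and HSP90AB1 lower in every KO library, the ratio had to separate, and its exact two-sided permutation p of 0.1, the smallest that 3 against 3 libraries allow, adds nothing to the values of the genes. With 1 library left out the difference ranged from 0.49 to 0.67. The coding sequences of both genes were identical at 76.2% of aligned bases, with no shared run longer than 23 bases. Pseudogenes named after HSP90AA1 summed to 2.42% of its level and those named after HSP90AB1 to 0.837%, counting whole rows where names share a row.

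**Figure D2:**
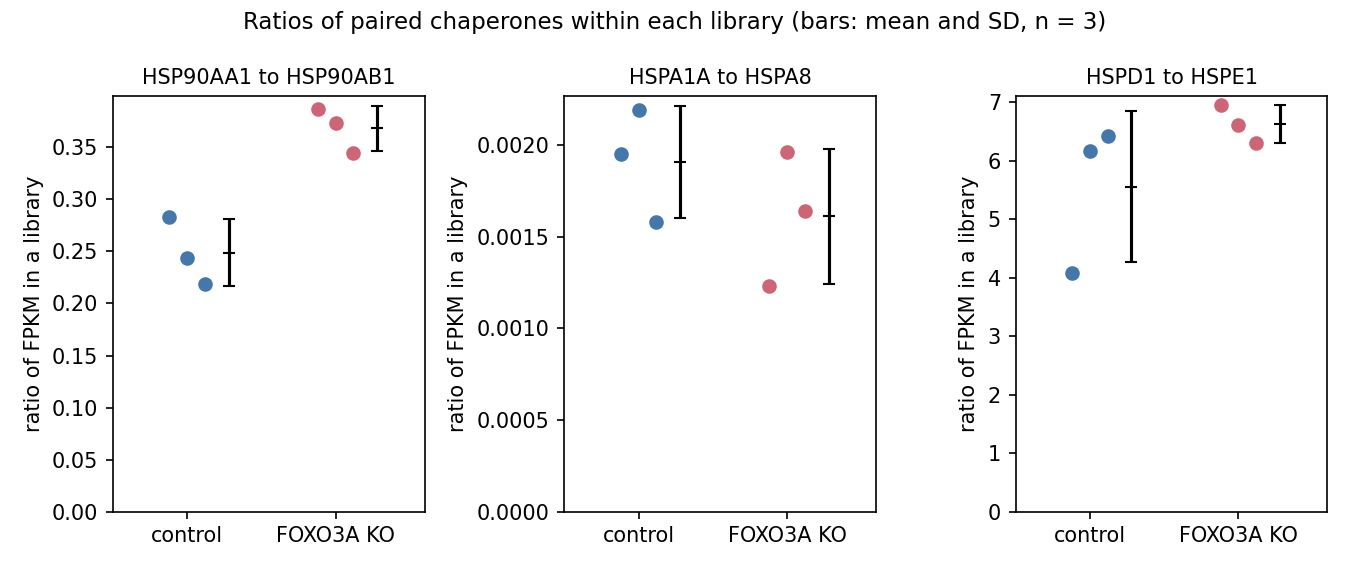
Ratio of FPKM within each library for the pairs HSP90AA1 to HSP90AB1, HSPA1A to HSPA8 and HSPD1 to HSPE1 (linear axes from 0, control in blue, FOXO3A KO in red, bars at mean and SD, n = 3). Groups are apart for the HSP90 pair, at 0.219 to 0.283 and 0.344 to 0.387, and overlap for the other pairs.

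Among HSP70 proteins, the constitutive HSPA8 did not separate the groups. It lies on chromosome 11 from 123057489 to 123063230 on the minus strand, and its value comes from a row shared with the snoRNA genes SNORD14C and SNORD14D. HSPA8 was at 457, 637 and 534 FPKM in control and at 593, 513 and 525 FPKM in KO libraries. The controls enclosed all KO libraries. Means were 542 ± 90.2 and 544 ± 43.1 FPKM (log2 fold change 0.01, 95% interval -0.30 to 0.33, limma adjusted p = 0.96; SD, n = 3).

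HSPA1A, the stress-inducible HSP70 on chromosome 6 from 31815464 to 31817946, was the lowest member. It stood at 0.892, 1.39 and 0.845 FPKM in control and 0.731, 1.00 and 0.861 FPKM in KO libraries, a mean coverage of 3.11 to 7.95. The groups overlapped, and the second control library was the highest. Without the filter on low values its log2 fold change was -0.12 (95% interval -0.44 to 0.19, limma adjusted p = 0.655). Relative to HSPA8 it reached 0.00191 ± 0.000305 in control and 0.00161 ± 0.000363 in KO libraries (SD, n = 3; exact permutation p = 0.5). Its neighbour HSPA1B has the same coding length of 1923 bases, identical at 99.8% of them with a shared run of 1709 bases, so reads of the pair cannot be told apart over most of the coding sequence. HSPA1B stood only in a row shared with C6orf48, 2 snoRNAs and another locus, at 21.8 ± 2.87 and 20.1 ± 0.223 FPKM (SD, n = 3), and is uncertain as a single gene. The sources used here do not say how shared reads were assigned, so the low level of HSPA1A is uncertain too.

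The HSP110 proteins, relatives of HSP70 that release its ADP, differed from each other in pattern. HSPH1, on chromosome 13 from 31134974 to 31162388 on the minus strand, was at 9.08, 6.45 and 6.38 FPKM in control and 11.9, 12.05 and 9.71 FPKM in KO libraries. Every KO library exceeded every control. The means of 7.3 ± 1.53 and 11.2 ± 1.3 FPKM (SD, n = 3) were 1.53-fold apart, the largest log2 fold change of the 10 genes at 0.57 (SE 0.15, 95% interval 0.21 to 0.93, limma adjusted p = 0.0887). The adjusted p was 0.0327 without the first control library and up to 0.255 with others left out. HSPA4, on chromosome 5 from 133051962 to 133106449, was at 68.3, 60.4 and 58.0 FPKM in control and 64.6, 63.9 and 63.2 FPKM in KO libraries, inside the range of the controls. Its log2 fold change was 0.04 (95% interval -0.14 to 0.22, limma adjusted p = 0.761).

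Of the J domain proteins, which recruit HSP70 to clients, DNAJA1 separated the groups and DNAJB1 did not. DNAJA1, on chromosome 9 from 33025211 to 33039907, was at 169, 163 and 151 FPKM in control and at 206, 204 and 186 FPKM in KO libraries. The groups did not overlap. Means were 161 ± 9.33 and 199 ± 10.8 FPKM (SD, n = 3), with a log2 fold change of 0.30 (SE 0.07, 95% interval 0.12 to 0.47) and the lowest adjusted p of the members (limma, 0.0761). DNAJB1, on chromosome 19 from 14514770 to 14529770, was at 64.4, 72.3 and 62.1 FPKM in control and 66.5, 64.1 and 78.3 FPKM in KO libraries. These values overlapped (log2 fold change 0.07, 95% interval -0.17 to 0.31, limma adjusted p = 0.697).

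The mitochondrial chaperonin genes HSPD1 and HSPE1 lie on opposite strands of chromosome 2, and the annotated span of HSPE1 lies within that of HSPD1. HSPD1 (197486581 to 197516737, minus strand), the subunit of the folding chamber, was at 329, 271 and 275 FPKM in control and 317, 311 and 299 FPKM in KO libraries. The first control library was the highest of the 6 and the other controls were the lowest. Its log2 fold change was 0.09 (95% interval -0.13 to 0.30, limma adjusted p = 0.576). HSPE1 (197499994 to 197503457, plus strand), the lid, stood only in a row shared with MOB4 and the HSPE1-MOB4 readthrough, at 80.6, 44.0 and 42.9 FPKM in control and 45.6, 47.2 and 47.4 FPKM in KO libraries. The first control library was set apart from the other 5, which lay between 42.9 and 47.4 FPKM. The log2 fold change was -0.19 (95% interval -0.76 to 0.38, limma adjusted p = 0.653), and 0.10 without that library. Its 26 pseudogenes in the table summed to 95.4% of its level, against 5.49% for the 17 of HSPD1. A pseudogene that shares a row with other genes carries the value of the whole row, so these sums may include other genes. The HSPE1 value and the HSPD1 to HSPE1 ratio are thus uncertain. That ratio was 5.56 ± 1.28 in control and 6.62 ± 0.327 in KO libraries (SD, n = 3; exact permutation p = 0.2).

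**Figure D3:**
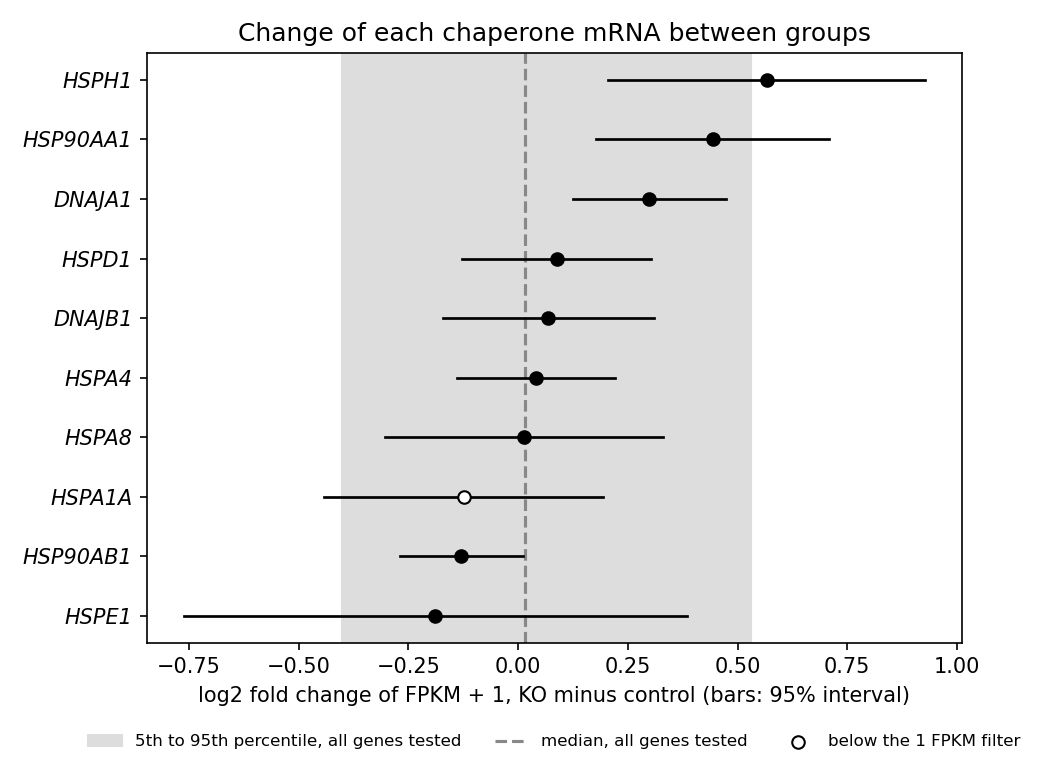
Log2 fold change of FPKM + 1 (KO minus control) for each chaperone with its 95% interval from limma, the hollow point being HSPA1A below the filter, and the grey band the 5th to 95th percentile of all 13084 tested genes (-0.40 to 0.53). Intervals of HSPH1, HSP90AA1 and DNAJA1 lie above 0, and HSPH1 alone has its point outside the band.

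GC content moved with these differences. Over the tested genes the log2 fold change had a Spearman rho of -0.38 with the GC content of the transcripts, a description over genes that share the 6 libraries. With genes split into 5 equal bins of GC content, the median was 0.24 in the bin of lowest GC content and -0.05 in the highest. HSPH1 and DNAJA1, with 39.7% and 41.7% GC, were in the lowest bin and HSP90AA1 (43.6%) in the second. HSPA4 (42.0%) and HSPE1 (38.3%, over the row it shares with MOB4) were in the lowest bin as well. Neither was higher in KO libraries beyond the spread. After a trend of each library with transcript length and GC content had been removed, the log2 fold change of HSPH1 was 0.30 in place of 0.57 and that of DNAJA1 was 0.16 in place of 0.30 (limma adjusted p = 0.0932 and 0.204). HSP90AA1 was at 0.36 (adjusted p = 0.0784) and HSP90AB1 at -0.14 (0.3) on the same scale. HSPA4 was at -0.13 (0.268) and HSPE1 at -0.49 (0.172). That trend used medians over the transcripts of each gene's row. With the longest transcript instead, HSPH1 was at 0.36 and DNAJA1 at 0.19 (limma adjusted p = 0.0737 and 0.121). HSP90AA1 was then at 0.41 (0.0785) and HSP90AB1 at -0.09 (0.281).

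**Figure D4:**
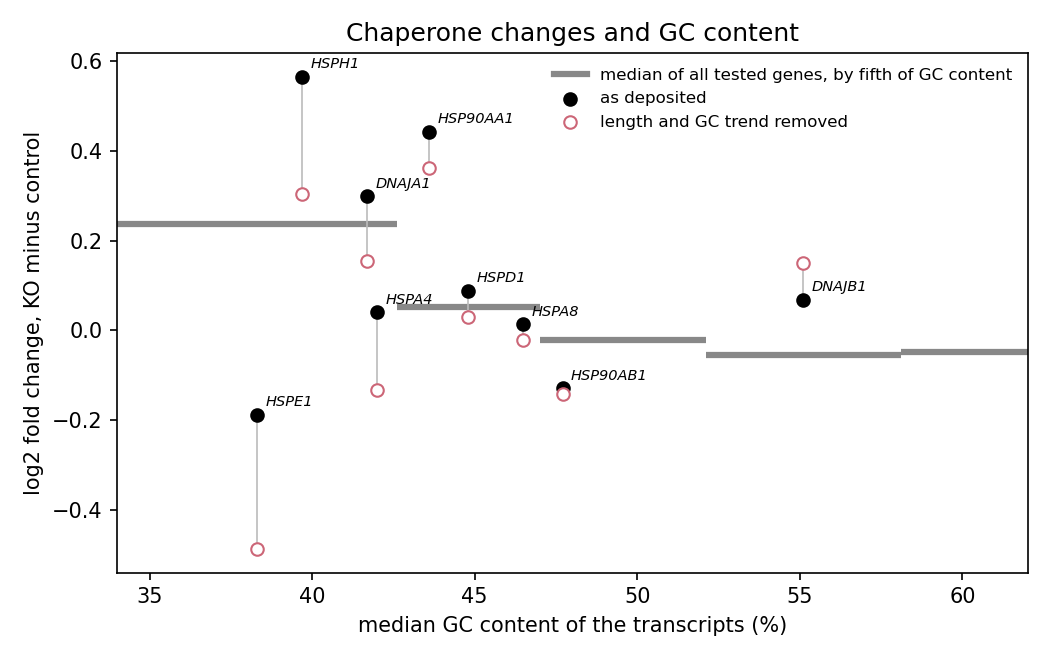
Log2 fold change (KO minus control) against median transcript GC content for the 9 tested chaperones, as deposited (black) and with the trend taken out (hollow red), with grey bars at the median of all tested genes in each of the 5 bins of GC content. HSPH1 is at 0.57 as deposited and at 0.30 with the trend removed, while HSP90AB1 is at -0.13 and -0.14.

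The factors that drive heat shock genes did not pass the test. HSF1 was at 11.3 ± 0.608 FPKM in control and 9.97 ± 0.285 in KO libraries (limma adjusted p = 0.215), with all KO libraries below all controls. HSF2, a related factor active in development, was at 8.75 ± 1.44 and 10.4 ± 0.421 FPKM (adjusted p = 0.252), with overlap. HSBP1L1, a relative of the HSF1-binding protein HSBP1, was at 5.31 ± 0.369 and 3.86 ± 0.202 FPKM (adjusted p = 0.0615; all with SD over n = 3).

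Of 89 other chaperone network genes 72 were tested, and 1 rose and 0 fell (limma adjusted p below 0.05, against 2.35% of all tested genes), with 13 at an unadjusted p below 0.05, against 25.1% of all tested genes. Groups stood apart in 12 that were higher and 12 that were lower in KO libraries, against 17.2% and 14.7%. The gene that rose was DNAJC2, a J domain protein bound to ribosomes, from 5.81 ± 0.354 to 9.41 ± 1.16 FPKM (SD, n = 3; log2 fold change 0.61, SE 0.10, adjusted p = 0.0433). With 1 library left out its adjusted p was between 0.0379 and 0.168, and of the 6 such fits the one lacking the first control library kept it below 0.05. With the length and GC trend taken out its log2 fold change was 0.33 (adjusted p = 0.0817). With that of the longest transcript, a setting added after seeing the data, it was 0.53 (adjusted p = 0.0306). In the same list of J domain proteins, with 13 tested, DNAJB14, an endoplasmic reticulum member, was at 1.5 ± 0.346 and 2.87 ± 0.498 FPKM (adjusted p = 0.0674), with a log2 fold change of 0.63, or 0.29 with the trend taken out.

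Of 13 tested co-chaperones of HSP90 0 passed, 5 were higher and 8 lower, with a median log2 fold change of -0.07. CHORDC1, an HSP90 partner known as a heat shock target, was at 4.57 ± 0.881 FPKM in control and 8.38 ± 2.94 in KO libraries without overlap (limma adjusted p = 0.146). FKBP4, a prolyl isomerase of HSP90 complexes with steroid receptors, was at 95.7 ± 3.22 and 86.4 ± 4.21 FPKM, lower without overlap (adjusted p = 0.208; both with SD over n = 3).

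Further HSP70 proteins, exchange factors and adaptors gave no call. Of 4 tested members of the HSP70 family, HSPA14, which acts with ribosome-bound DNAJC2, was at 10.5 ± 0.409 and 13.2 ± 1.01 FPKM (SD, n = 3; limma adjusted p = 0.0835). Among 9 exchange and adaptor proteins the median log2 fold change was 0.08. BAG4, a BAG domain protein, was at 3.99 ± 1.85 and 6.93 ± 0.183 FPKM (adjusted p = 0.183). Its second control library stood at 1.86 FPKM, and without it the log2 fold change was 0.39 in place of 0.75. HSPBP1, a nucleotide exchange factor, was at 14.2 ± 1.11 and 16.1 ± 0.71 FPKM (adjusted p = 0.235; both with SD over n = 3).

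Mitochondrial chaperones and proteases were balanced, with 7 of 14 tested genes higher, 7 lower and 0 past the threshold. LONP1, the matrix protease that degrades oxidised proteins, was at 33.5 ± 5.23 and 27.1 ± 1.49 FPKM (limma adjusted p = 0.197; log2 fold change -0.28, or -0.17 without the third control library), and YME1L1, a protease of the inner membrane, at 24.9 ± 3.64 and 29.1 ± 1.97 FPKM (adjusted p = 0.28). HSPA9, the matrix HSP70 mortalin, had means of 58.6 and 59.6 FPKM. The cytosolic chaperonin TRiC and prefoldin had 14 tested genes, of which 0 passed, 8 were higher and 6 lower. CCT7 was at 238 ± 11.1 and 208 ± 4.79 FPKM and CCT3 at 217 ± 15.2 and 185 ± 11.4 FPKM (adjusted p = 0.128 and 0.146; both with SD over n = 3), both subunits of TRiC and both lower without overlap. The subunit CCT6A was higher without overlap, at 125 ± 10.2 and 144 ± 2.64 FPKM (limma adjusted p = 0.152). In each direction 3 genes of the list had groups without overlap. Of 10 genes listed by name as small heat shock proteins 8 were below the filter on low values. HSPB1 (HSP27) was at 48.2 ± 7.59 and 45.5 ± 2.94 FPKM and HSPB11 at 13.5 ± 1.27 and 14.5 ± 0.977 FPKM (adjusted p = 0.754 and 0.549; both with SD over n = 3).

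**Figure D5:**
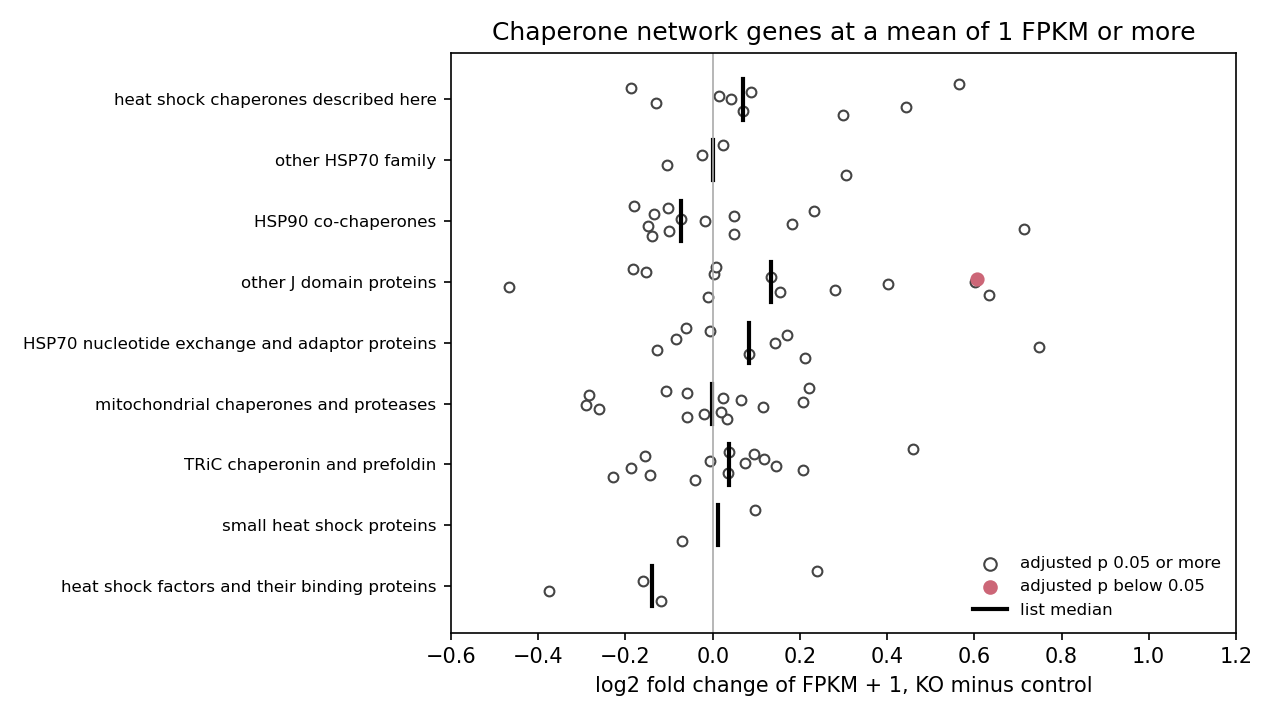
Log2 fold change of FPKM + 1 (KO minus control) for each tested gene of the 9 described chaperones and of 8 lists of related genes, with a black bar at each list's median and a filled red point for an adjusted p below 0.05. DNAJC2 is the only filled point, and list medians lie between -0.14 and 0.13.

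The genes whose profile over the 6 libraries was most like that of HSP90AA1, by the root mean square difference of centred log2(FPKM + 1) values, were COPS2, CCDC112, TRMT10C and the pair GXYLT2 and PPP4R2, which share 1 row. Their differences were 0.0432, 0.0466, 0.0514 and 0.0510 log2 units. Since HSP90AA1 was higher in every KO library, genes picked for its profile were bound to share that direction. Their p-values are therefore no separate result. COPS2, a subunit of the COP9 signalosome, was at 6.35 ± 0.751 and 9.48 ± 0.905 FPKM (SD, n = 3; limma adjusted p = 0.059). Its log2 fold change was 0.51, but 0.17 with the length and GC trend taken out (adjusted p = 0.267) and 0.07 with that of the longest transcript (0.714). Among the other chaperones the nearest to HSP90AA1 were DNAJA1 (0.0979, rank 157 of the tested genes) and HSPH1 (0.108, rank 246). HSPE1 and HSP90AB1 were the farthest, at 0.384 and 0.31.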

How the data were processed

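The authors deposited 1 gene table for the 6 libraries, and its columns hold FPKM per the file headers. The submitters' processing notes list Cufflinks 2.1.1, HTSeq and Bowtie 0.12.9 without saying what each did, and hg38 as the genome build. Of 56418 rows 29 had no name and 4865 repeats with identical values were dropped. Names joined in 1 row (1527 rows) were split and rows summed per name, which gave 48863 names. FPKM was tested as log2(FPKM + 1) with limma 3.58.1 (R 4.3.3, mean-variance trend, group as the only term) over all 13084 names at a mean of 1 FPKM or more, with Benjamini-Hochberg adjustment and a threshold of 0.05. Fold changes on that scale understate changes of low genes. Ratios within a library were compared with exact two-sided permutation tests. Low values came in steps, with 76.6% to 78.5% of them within 0.1 of a step against 20% by chance. A step was read as 1 aligned base, not 1 read, so no count model was used. How multi-mapped reads were shared out is not stated, which bears on genes with near copies. Coordinates, transcript length and GC content came from GENCODE release 29 and promoter windows from RefSeq, in which all 10 members matched by symbol.

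The chaperones and the lists were chosen with earlier results of these data known. Named genes were all members with HSPA1B, HSF1, HSF2 and FOXO3, every list gene past the threshold (at least the 2 of smallest p per list), the 5 profiles nearest to HSP90AA1 and the markers CD3E and CD14. A further marker and the sum of its list are not reported here. HSPA9, CCT6A and the further T cell, B cell and myeloid markers were named after their values were seen. Alternatives changed the pseudocount to 0.1, the filter to a mean of 5 FPKM or none, the scaling, the trend, the naming of rows, the length and GC trend and the libraries, and added a replicate block.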

Additional observations from a re-analysis of the deposited data

How the results depend on the processing

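Of 169 values of the 9 tested chaperones under 19 alternatives, 155 kept their direction and side of the threshold, 2 passed it and 12 changed sign. The 2 were HSP90AA1 and HSPH1 without the first control library, so that 0 to 2 chaperones passed with 1 library left out. Other named genes gave 449 values, of which 423 kept both, 9 lost the threshold, 10 gained it and 7 changed sign. The cause of these moves was not tested.

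HSPA8 was at -0.0287 under upper quartile scaling, -0.0052 under median of ratios scaling and -0.0212 with the length and GC trend removed. HSPA4 was at -0.0012 under upper quartile scaling, -0.13 with the trend removed, -0.0743 with that of the longest transcript and -0.0868 with the trend removed and the second control library left out. The last 2 settings were chosen after seeing the data. They gave HSPB1 0.0448 and 0.0595, and the latter gave HSPA1B 0.0376. HSPB11 was at -0.27 with the trend removed and -0.14 also without the second control library. With 1 library left out, log2 fold changes ranged from -0.10 to 0.14 for HSPA8, from -0.0071 to 0.11 for HSPA4, from -0.0176 to 0.13 for DNAJB1, from -0.34 to 0.10 for HSPE1, from -0.20 to 0.0153 for HSPB1 and from -0.12 to 0.0003 for FOXO3.

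Genes past the threshold in the whole table numbered 308 (158 higher, 150 lower). They numbered 642 under quantile normalization, 571 with the trend removed, 815 with that of the longest transcript and 75 to 1028 with 1 library left out, the most without the first control library. Without that library 736 were higher and 292 lower, and upper quartile scaling gave 178 higher and 277 lower. Among J domain proteins 0 passed without the filter, with the replicate block and with the trend removed (with or without the second control library). With the trend of the longest transcript 1 passed, under quantile normalization 2, and with 1 library left out 0 to 3. The list of heat shock factors had 1 call, HSBP1L1, under upper quartile scaling, quantile normalization and the trend of the longest transcript.

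With the replicate block 0 chaperones and 33 genes in all passed. Deviations of libraries with the same number correlated at 0.0965, -0.0437 and 0.0174, within the -0.187 to 0.156 of libraries with unlike numbers. Deviations within a group of 3 sum to 0, so these values cannot decide whether the numbers pair the libraries. HSPA1A, below the filter, is not counted in these alternatives, and its value without the filter is given with that gene. Rows kept under joint names give no value for HSPA8 and HSPE1. With 3 libraries a group, exact tests of ratios cannot go below 0.1, and the coverage of HSPA1A limits its value.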
